A study of Schmidtea mediterranea with 24 samples.

Results

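The most abundant transcripts of sorted planarian cells whose level differed little between the sorted groups are described here. The planarian is the flatworm *Schmidtea mediterranea*, which regrows a whole animal from a tail fragment. Levels are given as CPM, the counts of a transcript scaled by the total gene counts of its library. A transcript was taken as steady when its highest and lowest group level, as log2(group mean CPM + 1), lay less than 0.7 apart over the 6 sorted groups, and the 100 steady transcripts with the highest mean CPM over 18 libraries were kept. They are 100 of 36035 identifiers. The members were thus chosen by their CPM in the sorted libraries, and those values are given below as a description only. Their share of the tissue RNA and their evenness in 4 tissue sections were not used in the choice.

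Sorted libraries came from wild-type worms starved for 11 days. They were taken as intact animals, as tail fragments 6 h after the cut and as tail fragments 48 h after it, with 3 replicates of 100 worms per condition. Cells were fixed during dissociation and stained for mmp-1, the gene of a matrix metalloproteinase, and 1000 mmp-1+ and 1000 mmp-1- cells were sorted per replicate, which gives 6 groups of 3 libraries. The tissue sections were made with Slide-seqV2, in which barcoded beads of known position capture polyadenylated RNA from a frozen section. They came from blocks with 8 to 9 tail fragments around 1 intact animal. The sections are labelled wild type, and the animals were 6 to 8 mm long. There was 1 block at 48 h and 1 at 6 h, with 2 adjacent sections from each, so no test between time points was made. The sources used here do not say which piece of tissue was the intact animal. Another 2 samples, single cells after RNA interference, were not analysed here. The sorted libraries held 52969393 to 66114382 gene counts in mmp-1+ cells and 55497823 to 63524266 in mmp-1- cells. The sections held 13854 and 12817 tissue beads at 48 h and 9493 and 14389 at 6 h, and a tissue bead had a median of 932 and 783 UMIs (unique molecular identifiers) in the 48 h sections and 646 and 533 in the 6 h sections. Pairs of sections shared 3 to 5 bead barcodes.

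As background, the most abundant messages of an animal cell are as a rule those of general functions such as protein synthesis, energy supply and the cytoskeleton, and they are often used as references because most cell types carry them. A library of sorted cells averages over every cell type inside its gate, and the mmp-1- gate takes all types that lack the stain. A like level on both sides of a sort is therefore not the same measurement as a like level in every place of the body, which a section can show. The files pair no identifier with a gene name, so no function is given to any transcript here and the labels could not be checked against marker genes. CPM is a share of reads and is not corrected for transcript length, so the order of transcripts by CPM is an order of read share. In libraries from many cells, fewer cells of a type and less RNA per cell cannot be told apart.

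Steadiness was common among all identifiers but less so at the top of the list. Of the 36035 identifiers 28624 (79.4%) met the limit, and 14481 of these had a mean under 1 CPM. At or above the level of the lowest of the 100, 443 CPM, there were 195 transcripts in all, of which the 100 (51.3%) were steady and 95 were not. The 95 serve below as equally abundant transcripts for comparison. Among the 100, the median was 703 CPM and 33 had over 1000 CPM. The lowest places were SMED30035373 at 452 CPM, SMED30006002 at 444 CPM and SMED30026093 at 443 CPM. The next steady transcripts below the cut by rank were SMED30031631 at 437 CPM, SMED30001367 at 434 CPM and SMED30006216 at 430 CPM. At the limit of steadiness, SMED30004124 (range of 0.688), SMED30005863 (0.689) and SMED30033716 (0.696) fell just inside. SMED30012309 and SMED30024204, both with a range of 0.702, fell just outside.

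Together the 100 steady transcripts held 34.6% of all gene counts, averaged over the 18 libraries. In intact worms their share was 33.9% ± 1.43 for mmp-1+ cells and 36.7% ± 2.83 for mmp-1- cells. After amputation it was 33.4% ± 0.444 and 35.5% ± 1.37 in mmp-1+ and mmp-1- cells at 6 h, and 33.4% ± 0.553 and 34.4% ± 0.579 in mmp-1+ and mmp-1- cells at 48 h (SD, n = 3 each). The 9 mmp-1+ libraries lay between 32.6% and 35.4% and the 9 mmp-1- libraries between 33.9% and 39.7%, so the populations overlapped. The 95 equally abundant transcripts that were not steady held 20.4% ± 2.33 of counts over the 9 mmp-1+ libraries (SD). Over the 9 mmp-1- libraries they held 10.7% ± 0.783 (SD), with no overlap. Both sets were chosen by how far their group means in these same libraries lay apart, so nothing is read from this contrast. The steady share was 27.1% when unmapped and multimapping reads were counted in the total.

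A few transcripts made up most of that share. SMED30032887 alone held 12.8% of all gene counts, which was 36.9% of the counts of the 100. With SMED30027845, SMED30032663 and SMED30007704 it made up 67.1% of them. These 4 were also the 4 most abundant of all identifiers, and they were the 4 of the 100 that ranked in the top 10 overall. The other 96 held 10.9% ± 0.515 of gene counts over the 9 mmp-1+ libraries and 11.9% ± 0.561 over the 9 mmp-1- libraries (SD).

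**Figure D1:**
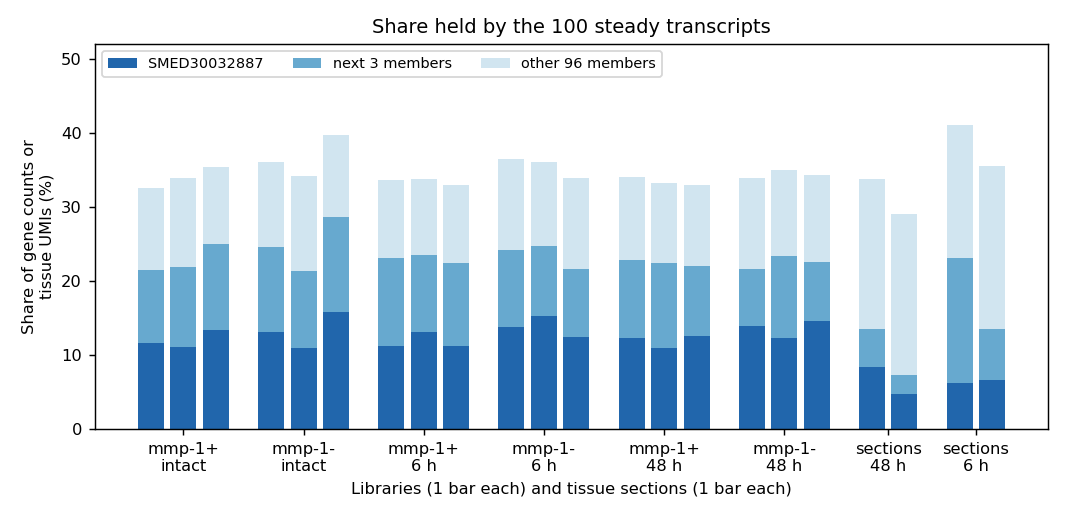
Share of gene counts (sorted libraries) and of tissue UMIs (sections) held by the 100 steady transcripts, in percent, with 1 bar per library or section; dark blue is SMED30032887, mid blue the next 3 transcripts and pale blue the other 96. Sorted bars reach 32.6% to 39.7%, and section bars 29.1% to 41.0% with a smaller part from the top 4 in the 48 h sections and in the second 6 h section.

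Among mmp-1+ libraries, SMED30032887 stood at 115867, 110865 and 133469 CPM for intact worms, at 112035, 130692 and 112491 CPM for 6 h tails and at 122746, 109432 and 125567 CPM for 48 h tails. Among mmp-1- libraries it stood at 131186, 109361 and 157634 CPM for intact worms, at 138606, 153441 and 124646 CPM for 6 h tails and at 139186, 123627 and 146528 CPM for 48 h tails. The libraries of every group overlapped those of another, and the group means differed by 0.23 on the log2 scale. SMED30027845 averaged 63420 ± 6475 CPM (mmp-1+) against 64323 ± 10087 CPM (mmp-1-) for intact worms, 69686 ± 5946 CPM (mmp-1+) against 51649 ± 4915 CPM (mmp-1-) for 6 h tails, and 61524 ± 8161 CPM (mmp-1+) against 46541 ± 12241 CPM (mmp-1-) for 48 h tails (SD, n = 3 each). It was near the limit, with a range of 0.58, and at 6 h its mmp-1+ libraries lay above its mmp-1- libraries without overlap. SMED30004937 had the smallest range of the 100, 0.15. Its 9 mmp-1+ libraries lay between 3628 and 4014 CPM and its 9 mmp-1- libraries between 3203 and 3884 CPM. SMED30005231 (range 0.18, mean 2224 CPM) and SMED30013735 (0.19, 5873 CPM) came next.

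**Figure D2:**
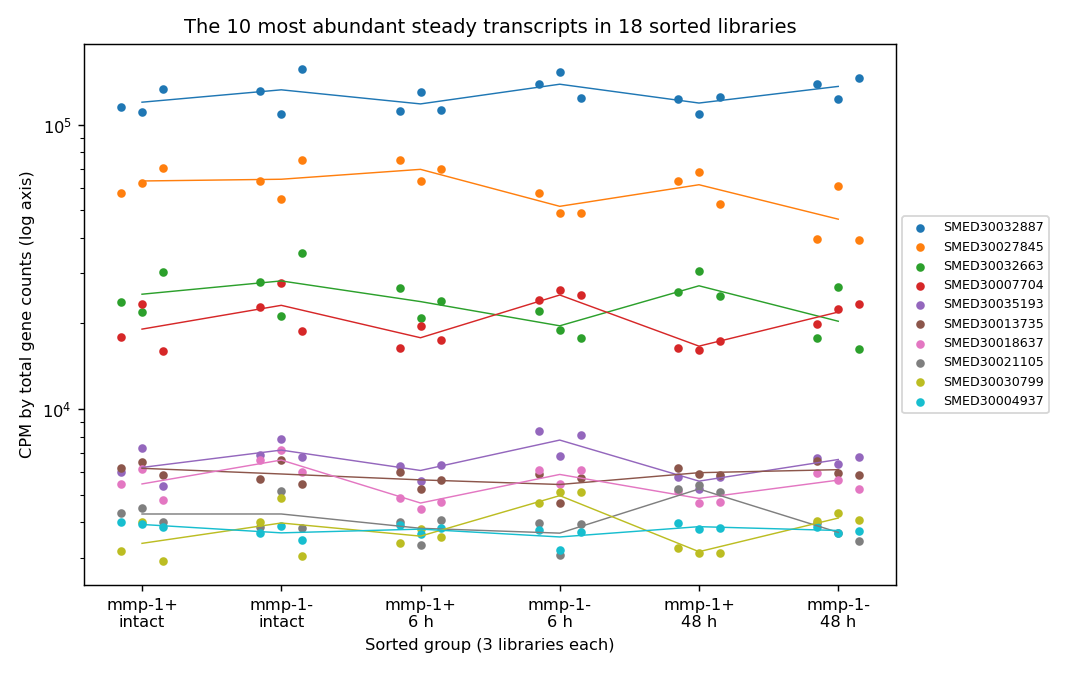
CPM on a log axis of the 10 most abundant steady transcripts in each of the 18 sorted libraries; points are libraries and lines join the means of the 6 groups of 3. SMED30032887 stays between 109361 and 157634 CPM, and each transcript keeps its own level while its libraries spread within a group.

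The range over the 6 groups had a median of 0.44 among the 100, a 1.36-fold difference between the highest and the lowest group. It was under 0.3 for 29 transcripts and at least 0.6 for 24. The mean coefficient of variation within a group had a median of 7.71% and ran between 3.72% and 19.8%, against a median of 12.0% in the 95 equally abundant transcripts that were not steady. The highest values were those of SMED30034279 (19.8%), SMED30021196 (18.6%) and SMED30032663 (17.6%). The mmp-1- libraries of intact worms held 835, 3654 and 1642 CPM of SMED30034279, so its group mean there rests mostly on replicate 2. In 93 of the 100, the highest of all 18 libraries was less than 2-fold above the lowest.

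The small differences that the limit allows had a direction that depends on scaling. By total counts, 69 of the 100 had their highest group mean in an mmp-1- group and 71 their lowest in an mmp-1+ group. After TMM scaling, which sets the bulk of genes level and gave factors below 1 in all mmp-1+ libraries and above 1 in all mmp-1- libraries, 76 had their highest mean in an mmp-1+ group, and 90 of the 100 were still steady. The quasi-likelihood test of edgeR on TMM-scaled counts called 46 of the 100 between mmp-1+ and mmp-1- cells averaged over time, 44 higher and 2 lower in mmp-1+ cells, against 19.1% of 31435 genes tested called (11% higher, 8.04% lower). Their median log2 fold change was 0.17, against -0.07 for all genes. With total-count scaling the calls were 65, 11 higher and 54 lower, against 71.2% of the 31435 genes tested (1208 genes higher, 21178 lower). The median of the 100 was then -0.17, against -0.41 for all genes. Relative to the median of all genes the 100 were thus 0.25 higher with TMM and 0.24 higher with total counts. The choice of the transcripts used these libraries, so nothing is read from these counts.

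Between time points few of the 100 were called. At 6 h against intact worms, 7 were called, all higher, against 17.9% of genes tested (8.49% higher, 9.41% lower). At 48 h against intact worms, 17 were called, 8 higher and 9 lower, against 29.4% of genes tested (13.2% higher, 16.2% lower). The largest called difference at 48 h was that of SMED30010350, with a log2 fold change of -0.42 ± 0.10 (SE, adjusted p = 0.00238 by edgeR's quasi-likelihood test with Benjamini-Hochberg adjustment). With total-count scaling 2 were higher and 5 lower at 6 h, against 17.5% of genes tested (1459 genes higher, 4029 lower). At 48 h 10 were higher and 7 lower, against 27.4% (4257 genes higher, 4349 lower). The direction of the 100 at 6 h thus depends on scaling, and the calls over all genes moved towards lower too. These libraries were used in the choice, and nothing is read from the counts. Leaving out single libraries moved the count at 6 h to between 3 and 11 and the count at 48 h to between 11 and 24. The replicate libraries of a group come from separate lots of worms per the labels.

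In the sections, which the choice did not use, the steady transcripts held a like total part of the RNA on average. That part was more variable and was made up differently. They held 33.8% and 29.1% of tissue UMIs in the 48 h sections and 41.0% and 35.5% in the 6 h sections, with 95% Wilson intervals of at most 0.0314 percentage points to either side, which cover counting error only. The mean of 34.8% lay close to the 34.6% of the sorted libraries. Beads off the tissue held 33.4% and 32.5% at 48 h and 35.8% and 34.8% at 6 h. The top 4 alone held 13.6% and 7.29% at 48 h and 23.1% and 13.6% at 6 h, against 23.2% on average in the sorted libraries. The other 96 held 11.4% on average in the sorted libraries, at most 12.9%, and a larger part than that in every section. The close totals thus join opposite shifts of these 2 parts on average. Between the lowest and the highest section the top 4 differed by more than the 100 together. Across tiles of about 50 beads the share of the 100 varied by a relative SD of 0.118 and 0.123 at 48 h and 0.159 and 0.144 at 6 h, beyond counting error. The same value for the 95 that were not steady was 0.218 and 0.230 at 48 h and 0.229 and 0.338 at 6 h.

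The level of single transcripts in the sections followed the sorted libraries only loosely. Across the 95 with at least 200 UMIs in every section, log2 levels in sorted cells and sections had a Pearson correlation of 0.62. The Spearman correlation was 0.48, both as a description over transcripts that share the same libraries. The others of the 100 all lay lower in the sections, between SMED30010405 (32.0-fold) and SMED30005467 (2774-fold). The sorted values count reads along transcripts and the section values count UMIs, so a gap between them is a gap between assays as much as between samples. Of the 100, 51 lay within 2-fold, 28 were at least 2-fold higher in the sections and 21 at least 2-fold lower. SMED30016196 stood highest relative to the sorted libraries, with 1152 CPM in sorted cells and 10037 and 8680 CPM in the 48 h sections and 12582 and 23026 CPM in the 6 h sections. SMED30018637 and SMED30013735, at 5515 and 5873 CPM in sorted cells, averaged 23693 and 20341 CPM in the sections.

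Of the 21 lower ones, 10 were at least 10-fold lower in the sections than in sorted cells, and together they held 1.15% of sorted counts. SMED30028786 had 3251 CPM in sorted cells and 12.0 and 26.1 CPM in the 48 h sections and 23.0 and 26.8 CPM in the 6 h sections. SMED30005467 averaged 961 CPM in sorted cells, between 694 and 1103 CPM in each library, and had 1 and 7 UMIs in the 48 h sections and 8 and 1 UMIs in the 6 h sections. SMED30011623, SMED30033070, SMED30004828 and SMED30010405 also had fewer than 200 UMIs in at least 1 section. These 5 were left out of the spatial measures, since too few UMIs cannot show whether a transcript is even, which leaves 95 of the 100 and 90 of the 95 equally abundant ones among 4099 transcripts measured.

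Evenness was measured as a spatial coefficient of variation (spatial CV), the SD of a transcript's level between tiles of about 50 tissue beads that exceeds counting error, relative to the level expected from each tile's total UMIs. A value of 0 means no variation beyond counting. The 95 steady transcripts measured had a median spatial CV of 0.222, the 90 measured that were not steady 0.830, and all 4099 transcripts 0.357. In single sections the median of the steady transcripts was 0.214 and 0.232 at 48 h and 0.243 and 0.219 at 6 h, so every section gave a like value. A transcript was called patterned when its spatial CV was at least 0.3 in all 4 sections and even when it was under 0.15 in all 4. Of the 95 steady transcripts measured, 27 were patterned, against 45.7% of the 4099 and against 76 of the 90 that were not steady. There were 4 even ones, against 0.561% of the 4099 and none of the 90, and the other 64 lay between. Among the 482 transcripts with at least 2000 UMIs in every section, 24 of 86 steady ones were patterned, against 49.2% of the 482, and 4 were even, against 1.87%. Most of the steady transcripts were neither patterned nor even. Without the first 48 h section 7 steady transcripts met the limit for even, a count that can only stay or rise when a section is left out.

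The 4 even transcripts were SMED30005231, SMED30016196, SMED30007742 and SMED30033139. SMED30005231 had the lowest mean spatial CV of the 95, 0.0864, with 0.0762 and 0.0726 in the 48 h sections and 0.104 and 0.0927 in the 6 h sections. Its level was 3613 and 4105 CPM at 48 h and 3886 and 4913 CPM at 6 h, and its tiles at the 10th and 90th percentile of the first 48 h section had 3047 and 4056 CPM. It was also the transcript with the second smallest range in the sort. SMED30007742 had 750 and 895 CPM at 48 h and 634 and 663 CPM at 6 h, with a mean spatial CV of 0.115. SMED30016196 was even within each section, with spatial CVs of 0.126 and 0.118 at 48 h and 0.127 and 0.123 at 6 h, while its level lay between 8680 and 23026 CPM over the sections. SMED30028786 had a mean spatial CV of 0.0985, but with 216 to 455 UMIs a section its values ran between 0 and 0.394. Too few UMIs stand behind it to call it even.

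SMED30004937, steadiest in the sort, had spatial CVs of 0.114 and 0.118 at 48 h and 0.161 and 0.142 at 6 h, just past the limit for an even transcript. SMED30013735 had 0.121 and 0.118 at 48 h and 0.182 and 0.162 at 6 h. Moran's I, which compares each bead with its 8 nearest tissue beads and is 0 without spatial structure, had a median of 0.0551 over the 95, against 0.207 in the 90 that were not steady and 0.00872 in all 4099. Across the 95, Moran's I had a Spearman correlation of 0.65 with the section level, and the median of all transcripts, most of them rarer, is not taken at a matched level. The lowest mean values were those of SMED30028786 (0.00297), SMED30028679 (0.00450), SMED30008987 (0.00835), SMED30017114 (0.00843) and SMED30006002 (0.00959).

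Steadiness in the sort and evenness in the tissue went together by degrees. None of the 29 transcripts with a range under 0.3 was patterned, and their median spatial CV was 0.190. Of the 43 measured with a range of 0.3 to 0.6, 11 were patterned (median 0.226). Of the 23 measured with a range of 0.6 to 0.7, 16 were patterned (median 0.555). Beyond the limit, 76 of 90 were patterned (median 0.830). Across the 95 the Spearman correlation of range and spatial CV was 0.63, given as a description over transcripts measured in the same libraries and sections. The median section level took the same order, with 2075 CPM under a range of 0.3, 838 CPM at 0.3 to 0.6, 615 CPM at 0.6 to 0.7 and 512 CPM beyond the limit, and its part in the result was not tested.

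**Figure D3:**
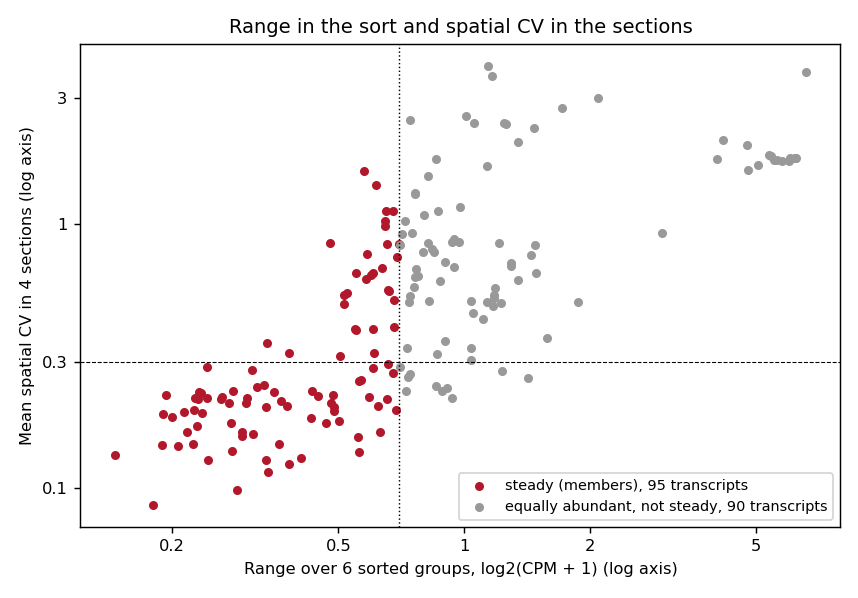
Mean spatial CV in the 4 sections against the range over the 6 sorted groups in log2(CPM + 1), both on log axes; red points are 95 steady transcripts and grey points 90 equally abundant transcripts that were not steady. The dotted line marks the limit of 0.7 and the dashed line a spatial CV of 0.3. Red points with a range under 0.3 all lie below the dashed line, and those close to the limit spread up to a spatial CV of 1.58.

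SMED30030799 was the steady transcript with the highest mean Moran's I. Its level was 12427 and 10458 CPM in the 48 h sections and 11661 and 16932 CPM in the 6 h sections. Its tiles at the 10th and 90th percentile had 815 and 28076 CPM in the first 48 h section and 1324 and 23796 CPM in the first 6 h section. Moran's I was 0.721 and 0.733 at 48 h and 0.623 and 0.693 at 6 h, and its mean of 0.693 was the highest of all 4099 transcripts. In the sort it had a range of 0.66. Among mmp-1+ libraries it stood at 3172, 4005 and 2927 CPM for intact worms, at 3382, 3777 and 3553 CPM for 6 h tails and at 3232, 3109 and 3102 CPM for 48 h tails. Among mmp-1- libraries it stood at 4019, 4859 and 3037 CPM for intact worms, at 4657, 5112 and 5105 CPM for 6 h tails and at 4028, 4298 and 4077 CPM for 48 h tails. By total counts the populations overlapped in intact worms and did not overlap at 6 h or at 48 h. By that scaling the median log2 fold change of all genes between mmp-1+ and mmp-1- cells was -0.41. With TMM that of SMED30030799 was -0.03 ± 0.08, averaged over time (SE, adjusted p = 0.799 by edgeR's quasi-likelihood test with Benjamini-Hochberg adjustment). The choice used these libraries, so nothing is read from the separation.

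**Figure D4:**
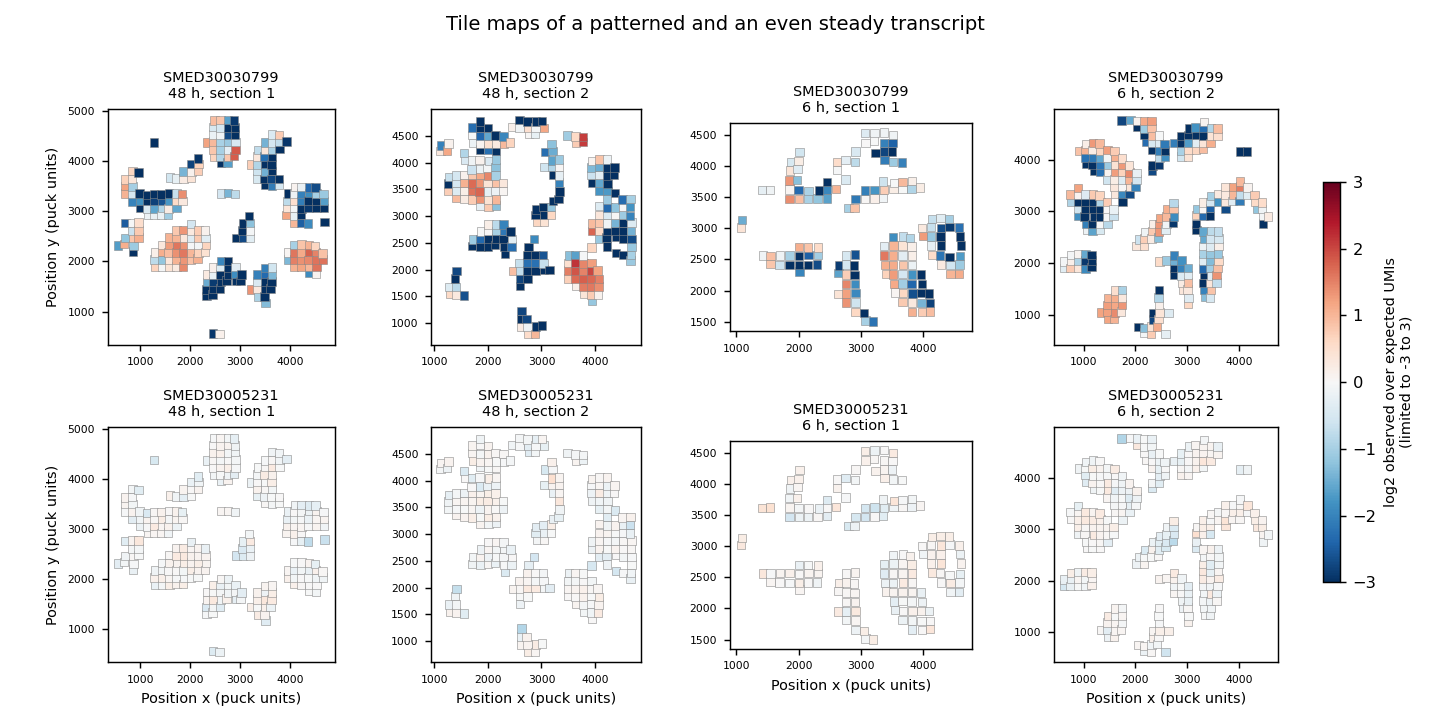
Tile maps of SMED30030799 (top row, patterned) and SMED30005231 (bottom row, even) in the 48 h and 6 h sections; each square is a tile of about 50 tissue beads, axes are bead positions in puck units, and color is the log2 ratio of observed to expected UMIs, limited to -3 to 3. SMED30030799 fills the middle of some pieces and is scarce in others, with a mean spatial CV of 0.843, while SMED30005231 stays near the expected level throughout, at 0.0864.

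SMED30030799 led a group of 13 steady transcripts with like maps. Tile maps were compared by the Pearson correlation of log2 observed over expected UMIs, averaged over the 4 sections. Of the 95 steady transcripts measured, 12 others reached 0.7 with SMED30030799, against 146 (3.56%) of all transcripts measured. Of the 90 equally abundant transcripts that were not steady, 10 reached it, so such maps were not particular to the steady ones. The closest was SMED30000967 at 0.97, followed by SMED30025591 (0.95), SMED30005863 (0.95), SMED30007704 (0.94), SMED30013396 (0.93), SMED30033716 (0.91), SMED30001635 (0.90), SMED30014243 (0.89), SMED30019668 (0.86), SMED30025783 (0.81), SMED30010350 (0.76) and SMED30024665 (0.73). Of the 13, 12 were patterned, with SMED30024665 the exception. All 13 had a lower level at the rim than in the interior on average, with mean log2 ratios of -0.76 to -0.30. By total counts, all 13 also had their highest group mean in an mmp-1- group and their lowest in an mmp-1+ group. Of all 100, 69 had their highest in an mmp-1- group and 71 their lowest in an mmp-1+ group by that scaling. The choice used these group means, so nothing is read from this count. With TMM the edgeR fold changes of the 13 between mmp-1+ and mmp-1- cells lay between -0.09 and 0.09 on the log2 scale. Together the 13 held 3.48% of sorted counts. Outside the 100, the nearest maps were SMED30018252 for SMED30030799 (0.98), SMED30014558 for SMED30007704 and SMED30025591 (0.96 each) and SMED30021545 for SMED30000967 (0.97).

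SMED30007704, the fourth most abundant of all, belonged to that group. Its spatial CV was 0.682 and 0.813 at 48 h and 0.509 and 0.553 at 6 h, and its level was 12541 and 9632 CPM at 48 h and 16349 and 18676 CPM at 6 h. SMED30021105 had close to the reverse of its map. The correlation of their tile maps averaged -0.84 and was negative in all 4 sections, the lowest among 4465 pairs of steady transcripts. Over all pairs the median correlation was 0.03, with 349 pairs over 0.5 and 632 under -0.3, so no single map described the list.

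SMED30032887, the most abundant transcript, had at least 1 UMI in 99.8% to 100.0% of tissue beads and varied little but in an ordered way. Its spatial CV was 0.172 and 0.195 at 48 h and 0.282 and 0.221 at 6 h, and its Moran's I 0.376 and 0.324 at 48 h and 0.472 and 0.447 at 6 h. Its level was 83864 and 48052 CPM at 48 h and 62879 and 67016 CPM at 6 h. SMED30008790 (0.91) and SMED30009757 (0.72) had like maps, and the nearest transcript outside the 100 was SMED30026663 (0.67). At the rim SMED30032887 had 104646 and 61102 CPM in the 48 h sections, against 79241 and 45704 CPM in the interior. In the 6 h sections it had 90584 and 87989 CPM at the rim, against 58423 and 62587 CPM in the interior. Off the tissue it was higher still, with 109251 and 83294 CPM at 48 h and 117016 and 112208 CPM at 6 h. Among the 25% of tissue beads with the fewest UMIs it had 156890 and 105537 CPM at 48 h and 121289 and 110038 CPM at 6 h. On beads of 300 to 1000 UMIs its log2 ratio of rim to interior was 0.27 and 0.25 at 48 h and 0.48 and 0.43 at 6 h, against 0.40 and 0.42 at 48 h and 0.63 and 0.49 at 6 h on all tissue beads. The part of off-tissue RNA in the result was not tested.

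Rim and interior were compared over the outer 25% of tissue beads by distance to the tissue edge and all others. Rim beads had a median of 563 and 371 UMIs at 48 h and 286 and 344 at 6 h, against 1112 and 964 at 48 h and 859 and 622 at 6 h in the interior. A difference of at least 0.32 on the log2 scale in all 4 sections was counted. Of the 95 steady transcripts 8 were that much higher at the rim, against 6.42% of all measured, and 9 were that much lower, against 4.49%. Among the 482 transcripts with at least 2000 UMIs in every section, 6 of 86 steady ones were higher, against 8.51%. There 9 of the 86 were lower, against 10.2%, so at that level neither share of the steady ones stood out. The 8 higher ones of the 95 were SMED30026808, SMED30021196, SMED30002992, SMED30021105, SMED30009757, SMED30000065, SMED30032887 and SMED30008790. All 9 lower ones belonged to the group led by SMED30030799. When only beads of 300 to 1000 UMIs were used, 5 and 7 remained, without SMED30032887, SMED30008790 and SMED30009757 among the higher ones and SMED30030799 and SMED30010350 among the lower ones. These 5 kept their sign in all 4 sections and fell short of 0.32 in at least 1. The mean log2 ratio on these beads, against that on all tissue beads, was 0.36 against 0.49 for SMED30032887, 0.38 against 0.48 for SMED30008790 and 0.37 against 0.56 for SMED30009757. For the lower ones it was -0.77 against -0.65 for SMED30030799 and -0.70 against -0.65 for SMED30010350. With the outer 40% of beads as the rim the counts were 4 and 0, and at 1.5-fold they were 2 and 0.

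SMED30026808 had the largest rim ratio, with 207 and 145 CPM at the rim against 42.7 and 37.8 CPM in the interior at 48 h, and 76.7 and 72.7 CPM at the rim against 23.4 and 21.3 CPM in the interior at 6 h. Its mean log2 ratio was 1.89, and 1.85 on beads of 300 to 1000 UMIs. It was rare in the sections, with 1420 and 946 UMIs at 48 h and 290 and 361 at 6 h. SMED30021196 had log2 ratios of 0.97 and 1.05 at 48 h and 0.72 and 1.65 at 6 h. Its mean spatial CV was 1.12, and no other steady transcript had a map correlation of 0.7 or more with it. Among steady transcripts with the same sign in all 4 sections, SMED30005863 (mean log2 ratio -0.76) and SMED30025591 (-0.75) were lowest at the rim. SMED30027845 had a mean of -0.82 but a ratio of 0.14 in the second 48 h section. SMED30030799 had 8276 and 5901 CPM at the rim and 13351 and 11278 CPM in the interior at 48 h, and 9430 and 11599 CPM at the rim and 12019 and 18058 CPM in the interior at 6 h.

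**Figure D5:**
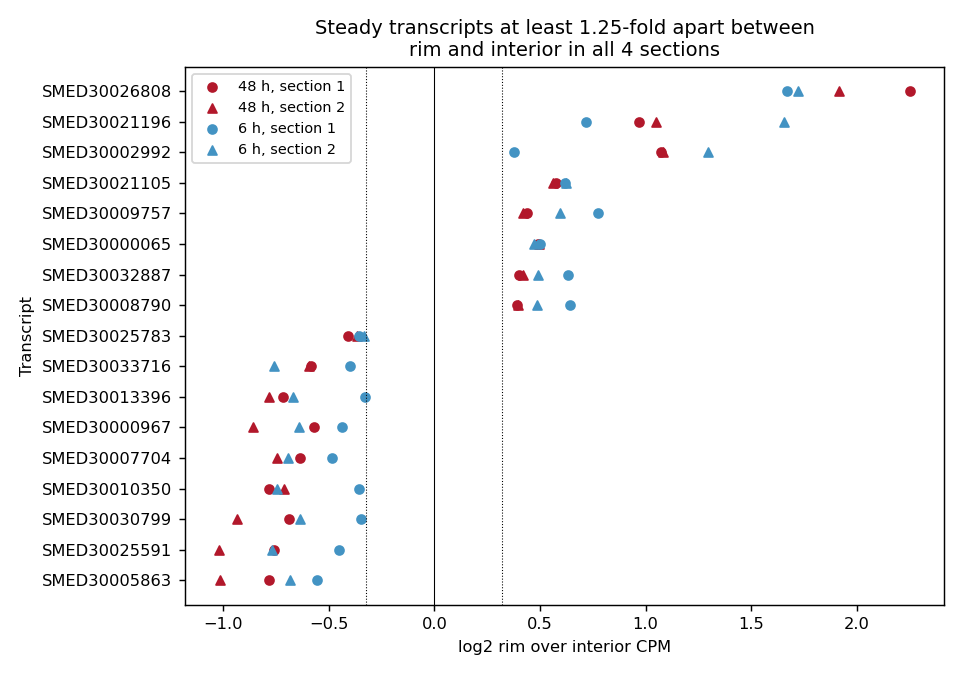
log2 ratio of rim to interior CPM in each section for the 17 steady transcripts that differ by at least 0.32 in the same direction in all 4; red symbols are 48 h sections and blue symbols 6 h sections, and dotted lines mark 0.32. The 8 higher ones reach 2.25 (SMED30026808) and the 9 lower ones -1.02 (SMED30025591).

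The largest spatial CVs belonged to transcripts of modest section level. SMED30034279 had 1.52 and 1.53 at 48 h and 1.48 and 1.80 at 6 h. Its level was 242 and 285 CPM at 48 h and 227 and 190 CPM at 6 h. SMED30028912 had 1.68 and 1.60 at 48 h and 1.10 and 1.27 at 6 h. Its level was 140 and 171 CPM at 48 h and 249 and 356 CPM at 6 h. Both had passed the limit of steadiness with ranges of 0.57 and 0.61.

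SMED30027845 and SMED30032663, at ranks 2 and 3 by abundance, shared a map (correlation 0.79) and were both patterned, with mean spatial CVs of 0.617 and 0.546. Their levels differed widely between sections. SMED30027845 had 29105 and 8186 CPM at 48 h and 104448 and 33817 CPM at 6 h. SMED30032663 had 10313 and 7001 CPM at 48 h and 46972 and 16015 CPM at 6 h. The log2 ratios of the mean 48 h level to the mean 6 h level were -1.89 and -1.86. These were the lowest among steady transcripts that went the same way in all pairs of sections. Adjacent sections of 1 block also lay far apart, except for SMED30032663 at 48 h, and with 1 block per time point this difference has no replicate check. In the sort the same transcripts lay within ranges of 0.58 and 0.52.

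Over all 95, the median log2 ratio of 48 h to 6 h sections was 0.27, against 0.23 over all 4099. In every pair of sections 10 were at least 1.5-fold higher at 48 h, against 13.5% of all measured, and 2 were at least 1.5-fold lower, SMED30032663 and SMED30009048, against 3.1%. Another 9 stayed within 0.32 on the log2 scale in every pair, against 14.4%. Among the 482 transcripts with at least 2000 UMIs in every section, 8 of 86 steady ones were at least 1.5-fold higher, against 8.51%. There 2 of the 86 were at least 1.5-fold lower, against 3.94%. SMED30035360 was highest at 48 h relative to 6 h, with a log2 ratio of the mean levels of 1.36. Its level was 913 and 957 CPM at 48 h and 358 and 369 CPM at 6 h. SMED30021196 followed (1.23), with 1155 and 2540 CPM at 48 h and 884 and 688 CPM at 6 h. SMED30009048 had 261 and 245 CPM at 48 h and 735 and 746 CPM at 6 h. Without the first 48 h section 23 were higher and 6 lower, and without the second 8 were lower. Without the first 6 h section 8 were lower, and without the second 6 h section 16 were higher. A call needs every pair to meet the limit, so leaving out a section can only keep or raise these counts. Adjacent sections are not separate animals, so these values describe 2 blocks.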

How the data were processed

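For sorted cells the authors deposited raw read counts per gene identifier in 1 table, not normalized. The submitters' processing notes name STAR 2.7.3a, RSEM, Cell Ranger and bcl2fastq 2.20 without a role for each, and no source used here states how reads were counted. Unmapped reads (12.1% to 16.1%) and multimapping reads (5.67% to 9.21%) were kept out of library sizes, so levels of near-identical genes are uncertain. Amplified reads without molecular identifiers are not independent molecules. For sections the deposited files hold raw UMI counts per gene and bead. Bead positions were deposited by the authors as a score on 2 axes, of no stated unit.

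The members and gene lists were chosen with earlier results of these data known. CPM, group means and ranges were computed in Python 3.11.15. Genes passing filterByExpr were tested with edgeR 4.0.16 (quasi-likelihood, TMM, 6 group means, R 4.3.3), at a Benjamini-Hochberg adjusted p under 0.05, for 3 contrasts. Tissue beads had at least 50 UMIs and a mean over the 20 nearest positions above an Otsu limit. Spatial measures used transcripts with at least 200 UMIs in every section, tiles of at least 25 beads and 8 nearest neighbours. Rim ratios used CPM + 1. Both fits were tested on simulated data. Named transcripts were the 10 most abundant and the extremes of each measure, with 2 to 5 at each end. No library appeared more than once (chi-square per gene 12.4 to 114 within groups). Alternatives were other scalings, filters, limits, tile and rim sizes, DESeq2 1.42.0 and leaving out each library or section.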

Additional observations from a re-analysis of the deposited data

Results flagged for a closer look

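SMED30032663, at rank 3 by abundance, had a rim ratio of opposite direction at the 2 time points. Its log2 ratio of rim to interior was 0.24 and 0.52 in the 48 h sections (mean 0.38) and -1.10 and -0.68 in the 6 h sections (mean -0.89). Both sections of each time point went the same way, with 1 block per time point, and the difference was not tested. On beads of 300 to 1000 UMIs the ratios were 0.61 and 0.80 at 48 h and -0.92 and -0.39 at 6 h. Opposite signs of any size occurred in 23 of the 95 steady transcripts, against 15.7% of all measured. The median log2 ratio over all measured also changed sign, with -0.08 and -0.07 at 48 h and 0.12 and 0.04 at 6 h. The shares were not taken at a matched level, so nothing is read from this count.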

How the results depend on the processing

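Of the 308 alternative values for summary results, 268 kept their direction and stayed within the replicate spread or, for a count, within 1.5 times, 39 moved and 1 reversed. With total-count scaling the sort contrast called 22386 of 31435 genes (71.2%), 1208 higher and 21178 lower in mmp-1+ cells. The median log2 fold change of the 100 was then -0.17, reversed relative to TMM, against -0.41 for all genes. The list rebuilt with a steadiness limit of 0.5 shared 58 of the 100, with a limit of 1.0 it shared 67 and with TMM-scaled CPM 74. The share of counts was 27.1% with all reads in the denominator. Median Moran's I was 0.0445 with 20 neighbours and 0.0330 without a log. The median spatial CV was 0.195 with tiles of about 100 beads and 0.188 with expected values within pieces. Even transcripts numbered 8 on beads of at least 100 UMIs, 7 with larger tiles, 9 within pieces, 0 at a limit of 0.1 and 17 at 0.2. Patterned ones numbered 44 at a limit of 0.2. Rim counts were 4 higher and 0 lower with the outer 40%, 2 and 0 at 1.5-fold, and 5 higher on beads of 300 to 1000 UMIs, an alternative chosen after seeing the data, like that of 2000 UMIs. At 48 h against 6 h, 24 were higher and 8 lower at a limit of 0.32 on the log2 scale, and 1 and 1 at 2-fold. The cause was not tested.

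Leaving out 1 library or section gave 94 to 99 shared members, 40 to 55 members called in the sort contrast, 3 to 11 at 6 h and 11 to 24 at 48 h. For 6 h the count was 4 without replicate 1 of either intact group or mmp-1+ replicate 3 at 6 h, 3 without mmp-1- replicate 3 at 6 h, and 11 without mmp-1- intact replicate 2. For 48 h it was 11 without mmp-1+ intact replicate 1 or mmp-1+ replicate 3 at 48 h. It also gave 5 to 7 even transcripts (7 without the first 48 h section), 27 to 28 patterned, 8 to 9 higher and 9 to 14 lower at the rim (14 without the first 6 h section), 14 to 23 higher and 3 to 8 lower at 48 h, and a median Moran's I of 0.0473 to 0.0621. Counts of calls that every section or pair must meet can only stay or rise when a section is left out. The labels do not say that equal numbers mark the same worms. Deviations of same-numbered libraries correlated by -0.00297 to 0.281, with 3 of 9 pairs over 0.1, and 8 of 9 correlated more than with any other number of their time point, a hint from the data and not from the design. With a replicate block the sort contrast called 5860 genes and 47 of the 100, 6 h called 6 and 48 h called 16. Depth limits the spatial measures of rare transcripts.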
